A study of Mus musculus with 12 samples.

Results

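The genes described here build, bind, cut and protect the extracellular matrix: collagens, laminins, elastic fibre and other matrix glycoproteins, integrin receptors, matrix metalloproteinases, ADAMTS proteases and their tissue inhibitors. They were chosen by gene symbol, as every gene of the deposited table with a numbered collagen, laminin, integrin, Adamts, Mmp or Timp symbol, plus Fn1, Eln, Fbn1, Fbln5, Sparc and Lox, and 2 symbols were left out by the rule. The rule gave 59 of the 10655 genes in the table: 6 fibrillar collagens, 3 basement membrane collagens, 10 other collagens, 5 laminins, 6 matrix glycoproteins, 7 integrin alpha chains, 6 integrin beta chains, 4 ADAMTS proteases, 6 metalloproteinases and 4 inhibitors. The last 2, Itgb1bp1 and Itgb3bp, encode proteins named for binding an integrin tail and are not integrin chains.

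The libraries were SMART-seq libraries of mouse aortic endothelial cells (MAECs), the cells that line the aorta, and they fell into 4 groups of 3. The groups carry the names WD_WD, CD_WD, WD_CD and CD_CD, with CD and WD standing for the 2 diets. The mother's diet was taken to stand before the offspring's in each name, which is the order of the series text and is not spelled out in the library names. The WD offspring (WD_WD and CD_WD) were put on WD again for 4 weeks, and the study concerns a high-fat diet of the mother and atherosclerosis in her offspring. The labels are silent on genotype, strain, sex, age, cell isolation and whether animals were separate or pooled, so every p-value measures only the spread between these libraries.

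Endothelial cells rest on a basement membrane of type IV collagen networks and laminins, which they help to make and which they grip with integrins, receptors built of 1 alpha and 1 beta chain. Beneath it, smooth muscle cells and fibroblasts lay down the elastic fibres and fibrillar collagens that carry the load of the aortic wall. Metalloproteinases and ADAMTS enzymes cut these proteins, and TIMP proteins inhibit the enzymes. Leukocytes carry integrins of their own, chiefly those with the beta 2 and beta 7 chains.

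The promoters of 3 members are shown because the results turn on them: Col4a1 and Col4a2 fell together and are transcribed away from each other, and Itgb7 was the member with the largest rise with CD mothers. Each line runs from 250 bases before to 50 bases after a RefSeq transcription start in GRCm38.p6, 5′ to 3′ on the strand of the gene, and windows of this kind were at hand for 40 of the 59 members. Capitals mark the letters of 3 searched motifs.
Col4a1: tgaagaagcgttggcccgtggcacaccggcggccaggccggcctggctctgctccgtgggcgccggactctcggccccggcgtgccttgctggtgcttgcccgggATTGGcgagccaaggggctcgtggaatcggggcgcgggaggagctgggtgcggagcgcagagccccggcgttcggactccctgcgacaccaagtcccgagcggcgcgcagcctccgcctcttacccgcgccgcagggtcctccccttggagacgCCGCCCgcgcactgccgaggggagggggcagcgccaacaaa
Col4a2: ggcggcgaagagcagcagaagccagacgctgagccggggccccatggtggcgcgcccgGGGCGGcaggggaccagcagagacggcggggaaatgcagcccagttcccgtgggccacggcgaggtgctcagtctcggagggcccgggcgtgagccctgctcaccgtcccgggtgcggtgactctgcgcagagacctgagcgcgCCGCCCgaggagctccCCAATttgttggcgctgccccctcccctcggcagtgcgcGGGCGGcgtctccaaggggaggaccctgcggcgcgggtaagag
Itgb7: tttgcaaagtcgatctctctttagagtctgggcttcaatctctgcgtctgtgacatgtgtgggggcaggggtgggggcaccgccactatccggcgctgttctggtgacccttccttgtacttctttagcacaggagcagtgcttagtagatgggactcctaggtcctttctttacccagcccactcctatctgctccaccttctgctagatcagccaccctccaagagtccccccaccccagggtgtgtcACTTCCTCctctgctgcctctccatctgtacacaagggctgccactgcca
The Col4a1 window lies on the minus strand at chr8:11312777-11313076, the Col4a2 window on the plus strand at chr8:11312555-11312854, and the Itgb7 window on the minus strand at chr15:102231886-102232185. For Col4a1 and Itgb7 the start used is not the outer end of the annotated gene. The Itgb7 window lies wholly inside that gene, which is annotated from 102215994 to 102233405. The 2 collagen windows share 78 bases, so these letters appear in both lines as reverse complements. Motifs were searched on both strands as CCAAT (a box bound by NF-Y), GGGCGG (the GC box), TATAAA (the TATA box), TGANTCA (an AP-1 site) and GAGGAAGT (a site of PU.1, a transcription factor of myeloid and B cells), and none of these strings contains another. Among 32817 windows of the same length, 37.4% held CCAAT, 35.6% GGGCGG, 13.6% TATAAA, 7.81% TGANTCA and 3.2% GAGGAAGT. The Col4a1 window held CCAAT and GGGCGG once each, both on the strand opposite to the gene. The Col4a2 window held CCAAT once and GGGCGG 3 times, and the single GAGGAAGT among the windows of the members was in Itgb7, on the opposite strand. These are matches of letters and say nothing about which factors bind.

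The libraries held 4074413 to 19670570 reads over the table, and 1 read was worth 0.861 to 3.96 units of normalised read count in WD offspring and 0.347 to 0.669 in CD offspring, so low values rest on fewer reads in WD offspring. The members took 0.0886% to 0.794% of the reads in WD offspring and 2% to 2.6% in CD offspring, while the 20 most abundant genes took 35.4% to 46.2% in WD offspring and 12.9% to 14.4% in CD offspring. The libraries of WD offspring also differed in cell type markers. The summed level of 19 endothelial markers was 14100 to 25820 in WD_WD, 2571 to 48080 in CD_WD, 76530 to 105900 in WD_CD and 98270 to 123700 in CD_CD. All 19 were detected in 11 of the 12 libraries, Robo4 being at 0 in WD_WD_2, so endothelial RNA was present throughout. The summed level of 16 macrophage markers, none of them at 0 in any library, was 801700 to 1408000 in WD_WD, 45380 to 641700 in CD_WD, 11580 to 137700 in WD_CD and 22320 to 52830 in CD_CD. Library CD_WD_1 stood apart, with the lowest share of reads on the members, the lowest endothelial sum and a sum of 400800 over 10 lymphocyte markers, against 7101 to 32820 in the other 5 libraries of WD offspring. The results of called members for CD_WD are therefore given with and without it where it moved them. Those of the marker genes and of genes outside the rule are given only with it. In bulk RNA, fewer cells of a type and less RNA per cell cannot be told apart, and neither can the offspring's diet and any difference in preparation or sequencing between the libraries of WD and CD offspring.

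In WD offspring most matrix and adhesion genes were lower than in CD offspring, whichever diet the mother had. Basement membrane collagens, laminins, elastin, fibronectin, lysyl oxidase and the integrin beta 1 chain fell, and the beta 2 and beta 7 chains rose. With WD mothers, 31 of the 59 members passed the test (limma adjusted p under 0.05 over all 10655 genes), 5 higher and 26 lower in WD_WD than in WD_CD, against 24.4% of all genes, 14.2% higher and 10.2% lower. With CD mothers, 25 passed, 2 higher and 23 lower in CD_WD than in CD_CD, against 15.0% of all genes, 9.46% higher and 5.55% lower. The median log2 fold change of the members was -2.26 with WD mothers and -2.30 with CD mothers, where the median of all genes was 0.01 with WD mothers and -0.02 with CD mothers. With WD mothers 15 members had a positive log2 fold change, against 50.1% of all genes, and 38 an unadjusted p under 0.05, against 38.8%. With CD mothers 10 had a positive one, against 49.4%, and 36 an unadjusted p under 0.05, against 30.2%. The 3 libraries of WD offspring lay wholly below those of CD offspring for 33 members with WD mothers and for 32 with CD mothers, against 19.4% and 21.6% of all genes, and wholly above for 6 and 4 members, against 21.9% of all genes in each comparison. Of 19 endothelial markers, 9 passed as lower with WD mothers (47.4%) and 10 with CD mothers (52.6%), against 10.2% and 5.55% of all genes. Their median log2 fold changes were -2.65 and -2.91. The part of endothelial RNA in the values of the members was not tested.

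Both comparisons called 21 members lower, namely Adamts1, Adamts10, Col4a1, Col4a2, Col4a3, Col3a1, Col5a2, Timp3, Itga1, Itga9, Itgb1, Itgb4, Lama4, Lama5, Lamb2, Lamc1, Eln, Fbn1, Fn1, Lox and Col18a1, and 2 members higher, Itgb2 and Itgb7. Another 8 passed only with WD mothers and 2 only with CD mothers, but the test of the difference between the comparisons, the interaction of both diets, called none of them. The shares of all genes called in both comparisons or in only 1 were not counted. The number of members called, given here without that of all genes in the same fits, changed when a library was left out. With CD mothers it was 14 without CD_CD_1 and 15 without CD_CD_2, and with WD mothers 18 without WD_CD_2 and 20 without WD_CD_3. Without CD_WD_1 the count with CD mothers was 19, and the median log2 fold change of the members was -1.18.

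**Figure D1:**
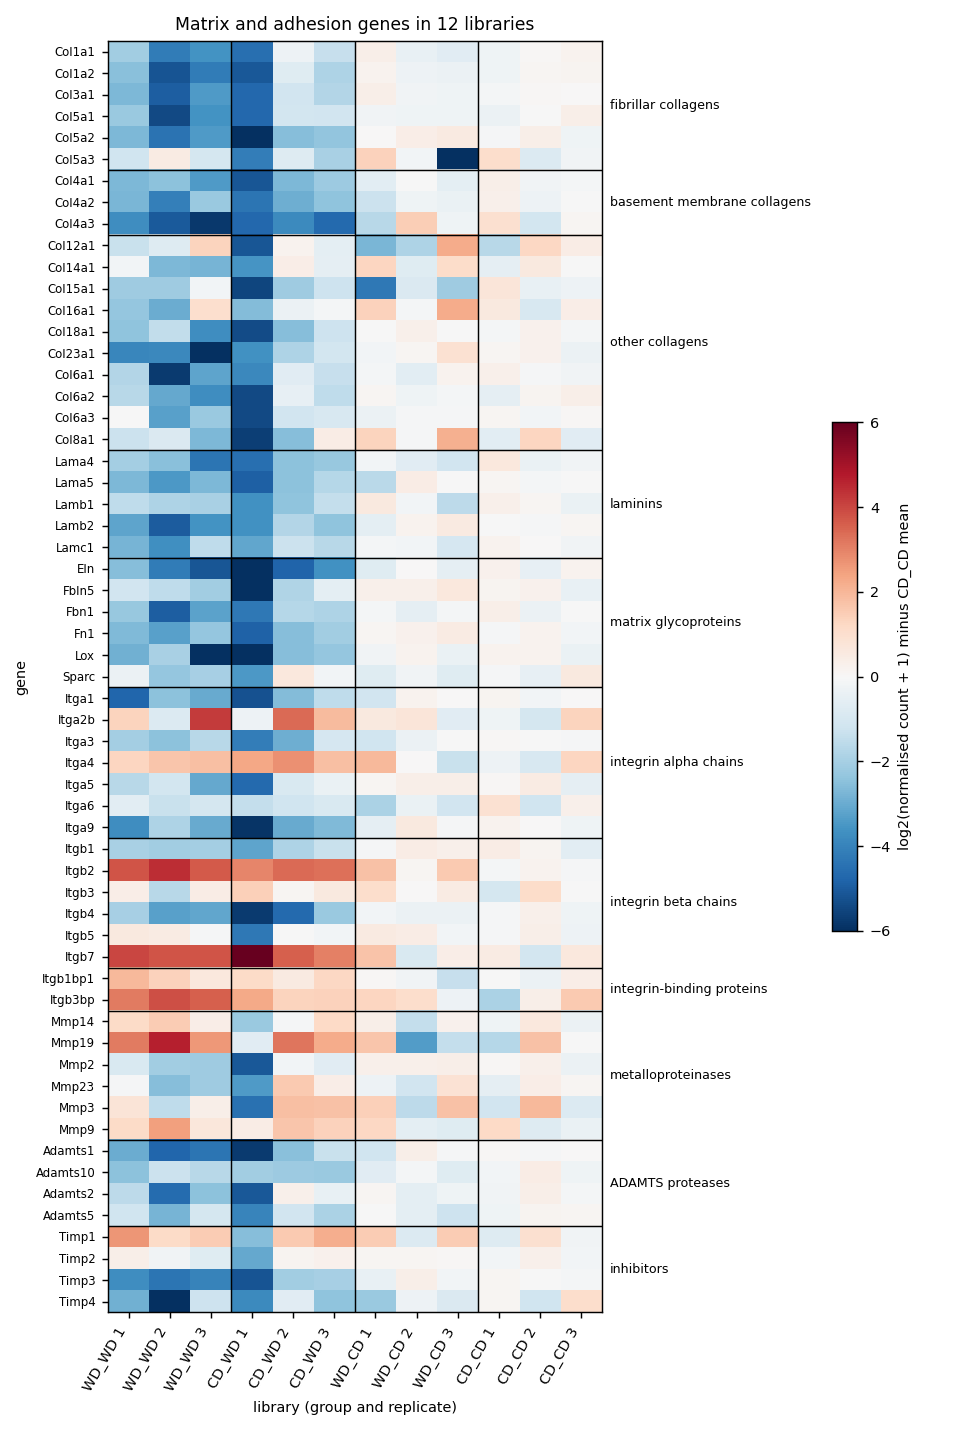
Heat map of log2(normalised read count + 1) of the 59 members in each of the 12 libraries, minus the mean of the CD_CD libraries, with members grouped by role and libraries by group. Blue is lower and red higher than the CD_CD mean, and colours stop at -6 and 6. Most rows are blue in the WD_WD and CD_WD libraries, and Itgb2 and Itgb7 are red.

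**Figure D2:**
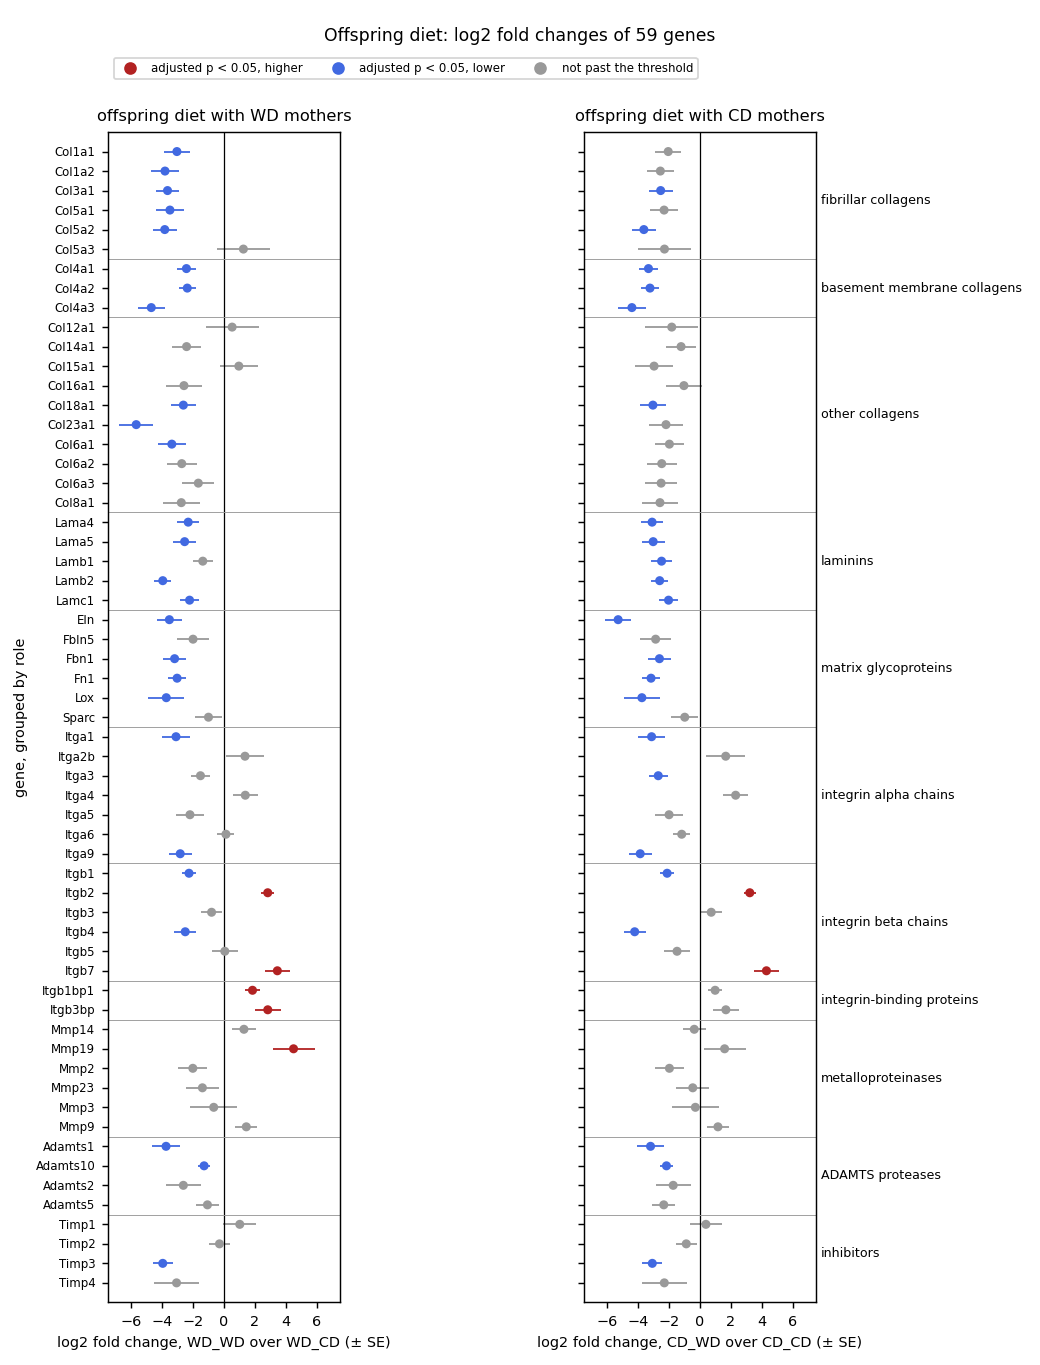
Log2 fold change of each member for the offspring's diet, WD_WD over WD_CD on the left and CD_WD over CD_CD on the right, with bars of 1 SE from limma over 12 libraries. Red points passed the test as higher (5 on the left, 2 on the right) and blue points as lower (26 and 23), and grey points did not pass.

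The basement membrane collagens fell in WD offspring with both kinds of mother. Col4a1 encodes the alpha 1 chain of type IV collagen, which forms the network of nearly every basement membrane together with the alpha 2 chain of Col4a2. Col4a1 had normalised read counts of 606, 713 and 376 in WD_WD, 112, 613 and 861 in CD_WD, 2529.6, 3876 and 2594 in WD_CD, and 4952, 3414 and 3579.9 in CD_CD. No library of WD offspring reached the lowest library of CD offspring. Col4a1 gave a log2 fold change of -2.43 ± 0.60 (SE; limma adjusted p = 0.0131) with WD mothers and -3.33 ± 0.60 (SE; limma adjusted p = 0.00396) with CD mothers. Without WD_CD_2 the call with WD mothers was missed (limma adjusted p = 0.0509), and without CD_WD_1 the log2 fold change with CD mothers was -2.43. Col4a2 stood at 390.4, 150.1 and 550.4 in WD_WD, 124, 339 and 488 in CD_WD, 1068, 2133 and 1986 in WD_CD, and 3211, 2096 and 2564 in CD_CD. Its groups of WD and CD offspring did not overlap either. Col4a2 gave a log2 fold change of -2.37 ± 0.56 (SE; limma adjusted p = 0.0101) with WD mothers and -3.23 ± 0.56 (SE; limma adjusted p = 0.00317) with CD mothers. Per kilobase of exon, the ratio of Col4a1 to Col4a2 was 1.38, 4.21 and 0.606 in WD_WD, 0.796, 1.6 and 1.56 in CD_WD, 2.1, 1.61 and 1.16 in WD_CD, and 1.37, 1.44 and 1.24 in CD_CD. The ratio thus varied more among the WD_WD libraries than among the CD_CD libraries. The annotated genes overlap head to head by 85 bases (Col4a1 at chromosome 8, 11198423 to 11312889, minus strand; Col4a2 at 11312805 to 11449287, plus strand), and the labels do not say whether reads were counted by strand, so reads in the overlap are uncertain.

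Col4a3, the alpha 3 chain of a second type IV network best known from the kidney, had the largest fall of the 3. It measured 36, 13.7 and 7.92 in WD_WD, 17.8, 33.5 and 18.1 in CD_WD, 151, 1377 and 403 in WD_CD, and 959.9, 226 and 532 in CD_CD. All 6 libraries of WD offspring were at 36 or less and all 6 of CD offspring at 151 or more, with log2 fold changes of -4.70 ± 0.88 (SE; limma adjusted p = 0.0032) with WD mothers and -4.40 ± 0.88 (SE; limma adjusted p = 0.00627) with CD mothers. With WD mothers this value ran from -5.46 without WD_CD_1 to -3.87 without WD_CD_2, as these 2 libraries had the lowest and highest WD_CD level.

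Laminins, the heterotrimers that join type IV collagen to cells, were also lower in WD offspring. All 5 measured laminin genes passed as lower with CD mothers, against 5.55% of all genes, and 4 of the 5 with WD mothers, against 10.2%. Lama4 and Lama5 encode the alpha chains of the endothelial laminins. Lama4 had 149, 106 and 27.7 in WD_WD, 25.4, 109 and 123 in CD_WD, 537, 379 and 276 in WD_CD, and 934, 458 and 523 in CD_CD. Every WD offspring library was below every CD offspring library. Lama4 gave a log2 fold change of -2.31 ± 0.73 (SE; limma adjusted p = 0.0357) with WD mothers and -3.10 ± 0.73 (SE; limma adjusted p = 0.0145) with CD mothers. Lama5 had 123, 72.8 and 123 in WD_WD, 25.4, 142 and 246 in CD_WD, 262, 1080.2 and 790.4 in WD_CD, and 870.4, 727 and 795 in CD_CD, again without overlap. Lama5 gave a log2 fold change of -2.54 ± 0.74 (SE; limma adjusted p = 0.0267) with WD mothers and -3.03 ± 0.74 (SE; limma adjusted p = 0.0173) with CD mothers. Library WD_CD_1 was the lowest of the CD offspring for Lama5, and without it the log2 fold change with WD mothers was -3.15.

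Lamb2 encodes the beta 2 chain and was the most abundant laminin gene of the table per kilobase of exon in each of the 4 groups. Its normalised read counts were 254, 71.3 and 190.1 in WD_WD, 183, 676 and 424 in CD_WD, 1509.8, 2659 and 3276 in WD_CD, and 2219.6, 2183 and 2456 in CD_CD. The groups of WD and CD offspring did not overlap, and Lamb2 had the lowest adjusted p of all 59 members with WD mothers, at a log2 fold change of -3.96 ± 0.54 (SE; limma adjusted p = 0.000679). With CD mothers it was -2.61 ± 0.54 (SE; limma adjusted p = 0.00748). Lamc1 encodes the gamma 1 chain that most laminins share and had 113, 60.7 and 273 in WD_WD, 88.7, 316 and 244 in CD_WD, 731, 701 and 383 in WD_CD, and 909.6, 788 and 664 in CD_CD. Its groups did not overlap either, at -2.23 ± 0.59 (SE; limma adjusted p = 0.018) with WD mothers and -2.03 ± 0.59 (SE; limma adjusted p = 0.0361) with CD mothers. The fifth gene, Lamb1, fell with CD mothers (-2.48 ± 0.66 SE, limma adjusted p = 0.0255) and gave -1.37 ± 0.66 (SE; limma adjusted p = 0.146) with WD mothers, which did not pass.

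Among the laminins, Lamb2 passed in both comparisons whichever library was left out, and the other calls did not. With WD mothers, Lama4 missed the threshold without any 1 of the 3 WD_CD libraries, WD_WD_2 or WD_WD_3 (limma adjusted p up to 0.116, log2 fold change -1.60 without WD_WD_3), Lama5 without WD_CD_2, WD_CD_3, WD_WD_2 or WD_WD_3 (up to 0.101). Lamc1 missed it without WD_CD_1, WD_CD_2 or WD_WD_2 (up to 0.0655). With CD mothers, Lama4 missed it without CD_CD_1 (0.0718), Lama5 without CD_CD_1 or CD_CD_2 (up to 0.067), Lamb1 without CD_CD_1, CD_CD_2, CD_WD_1 or CD_WD_2 (up to 0.0975). Lamc1 missed it without any CD_CD library or CD_WD_1 (up to 0.123). Without CD_WD_1 the log2 fold changes with CD mothers were -2.38 for Lama4 and -2.08 for Lama5.

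The fibrillar collagens form the tensile fibres of the adventitia and media. With WD mothers 5 of the 6 fell, against 10.2% of all genes, and with CD mothers 2 of the 6, against 5.55%. None passed as higher. Col1a1 and Col1a2 encode the 2 chains of type I collagen. Col1a1 had 1767, 399 and 622 in WD_WD, 327, 6064 and 2888 in CD_WD, 9595, 5509.8 and 4662 in WD_CD, and 6215, 7684 and 8610.5 in CD_CD. Col1a2 had 1230.4, 193 and 388 in WD_WD, 210.4, 4224 and 1932 in CD_WD, 8221, 5651 and 5528 in WD_CD, and 5890.0, 7659 and 7859 in CD_CD. For both genes the WD_WD libraries lay below the WD_CD libraries and the CD_WD libraries below the CD_CD libraries, with CD_WD_1 far below. In CD_WD_2 the level of Col1a1 was close to the lowest CD_CD library and above WD_CD_2 and WD_CD_3. The log2 fold change of Col1a1 was -3.04 ± 0.85 (SE; limma adjusted p = 0.0221) with WD mothers and -2.05 ± 0.85 (SE; limma adjusted p = 0.124) with CD mothers, and that of Col1a2 was -3.81 ± 0.89 (SE; limma adjusted p = 0.00982) with WD mothers and -2.56 ± 0.89 (SE; limma adjusted p = 0.0711) with CD mothers, so neither passed with CD mothers. The chain ratio held steadier than the levels. Per kilobase of exon, Col1a1 was 2.72 to 3.92 times Col1a2 in WD_WD, 2.72 to 2.94 times in CD_WD, 1.6 to 2.21 times in WD_CD and 1.9 to 2.07 times in CD_CD. The ratio was thus higher in each of the 6 libraries of WD offspring than in any of the 6 of CD offspring, a comparison made after seeing the values and not tested.

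Col3a1, the type III collagen of compliant tissue and vessel walls, had 1205, 250.2 and 740.4 in WD_WD, 297, 3582 and 2286 in CD_WD, 10004, 6837 and 6499 in WD_CD, and 7329, 8253 and 7956 in CD_CD. No library of WD offspring overlapped those of CD offspring, at -3.65 ± 0.77 (SE; limma adjusted p = 0.00594) with WD mothers and -2.54 ± 0.77 (SE; limma adjusted p = 0.0427) with CD mothers. Col5a2, a chain of type V collagen, which nucleates the fibres, fell most among the fibrillar genes in both comparisons. It had 347, 105 and 218 in WD_WD, 35.5, 389 and 438 in CD_WD, 2342, 2962 and 3311 in WD_CD, and 2151, 2927 and 1875 in CD_CD. Every library of WD offspring was at 438 or less and every library of CD offspring at 1875 or more. The log2 fold changes were -3.83 ± 0.77 (SE; limma adjusted p = 0.00461) with WD mothers and -3.63 ± 0.77 (SE; limma adjusted p = 0.00848) with CD mothers. Its partner Col5a1 fell with WD mothers (log2 fold change -3.49 ± 0.90 SE, limma adjusted p = 0.0153) and did not pass with CD mothers (-2.32 ± 0.90 SE, limma adjusted p = 0.101). Col5a3 passed in neither, and its level was listed at 0 in WD_CD_3.

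Single libraries bore on the fibrillar calls. With WD mothers, Col1a1 missed the threshold without WD_CD_1, WD_CD_2, WD_WD_2 or WD_WD_3 (limma adjusted p up to 0.0832) and Col5a1 without WD_WD_2 (0.0609). WD_WD_1 had the highest and WD_WD_2 the lowest level of all 5 called genes in its group, and the log2 fold change of Col1a2 was -4.53 without WD_WD_1 and -3.20 without WD_WD_2, that of Col5a1 -4.25 without WD_WD_1 and -2.65 without WD_WD_2, that of Col1a1 -3.65 without WD_WD_1, and that of Col3a1 -3.01 without WD_WD_2. With CD mothers, Col3a1 missed the threshold without any CD_CD library or CD_WD_1 (up to 0.118), at -1.45 without CD_WD_1 and -3.25 without CD_WD_2, and Col5a2 was at -2.46 without CD_WD_1 and -4.25 without CD_WD_3. The summed level of 9 fibroblast markers, none of them at 0 in any library, was 6730 to 24260 in WD_WD, 2510 to 89680 in CD_WD, 18670 to 57660 in WD_CD and 15020 to 38510 in CD_CD, and CD_WD_1 was lowest and CD_WD_2 highest of all 12 libraries. The part of fibroblast RNA in the collagen values was not tested.

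Of the 10 other collagens, 3 fell with WD mothers, against 10.2% of all genes, and 1 with CD mothers, against 5.55%. The second count is near the share of all genes. Col18a1, a basement membrane collagen whose end piece is endostatin, had 262, 502 and 103 in WD_WD, 33, 239 and 593 in CD_WD, 1385, 1719 and 1358 in WD_CD, and 1267, 1682 and 1266 in CD_CD. Its groups did not overlap, and it passed in both comparisons, at -2.63 ± 0.83 (SE; limma adjusted p = 0.0361) with WD mothers and -3.04 ± 0.83 (SE; limma adjusted p = 0.0275) with CD mothers. Col23a1, a collagen anchored in the plasma membrane, had 20.6, 21.2 and 0 in WD_WD, 25.4, 90 and 152 in CD_WD, 288, 357 and 615 in WD_CD, and 355, 386 and 255 in CD_CD. It was listed at 0 in WD_WD_3, where 1 read is worth 3.96, and every library of WD offspring was below every library of CD offspring. Its log2 fold change of -5.67 ± 1.09 (SE; limma adjusted p = 0.0036) with WD mothers was the largest fall among the members, on the log2(value + 1) scale, and it was -4.43 with a pseudocount of 8, -4.92 by edgeR, -6.43 without WD_WD_2 and -4.19 without WD_WD_3. With CD mothers it was -2.20 ± 1.09 (SE; limma adjusted p = 0.195) and did not pass.

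Col15a1, the close relative of Col18a1, had 36, 36.4 and 143 in WD_WD, 2.54, 35.6 and 68.9 in CD_WD, 7.21, 87.7 and 36.1 in WD_CD, and 271, 119.7 and 131 in CD_CD. The 3 CD_WD libraries lay below the 3 CD_CD libraries, while WD_WD and WD_CD overlapped, and neither comparison passed (0.96 ± 1.22 SE, limma adjusted p = 0.586 with WD mothers and -2.97 ± 1.22 SE, limma adjusted p = 0.121 with CD mothers). Col6a1, a chain of the microfibril-forming type VI collagen, fell with WD mothers (-3.37 ± 0.92 SE, limma adjusted p = 0.0198), with limma adjusted p of 0.0644 without WD_CD_3 and 0.0671 without WD_WD_2. Its log2 fold change was -4.27 without WD_WD_1 and -2.27 without WD_WD_2. Col6a2, Col6a3, Col8a1, Col12a1, Col14a1 and Col16a1 passed in neither comparison, with log2 fold changes between -2.76 and 0.53 with WD mothers and between -2.59 and -1.04 with CD mothers. Col18a1 missed the threshold with WD mothers without each library but WD_WD_2 (limma adjusted p 0.0683 to 0.127), at -2.02 without WD_WD_3, and with CD mothers without any CD_CD library (up to 0.0942), by edgeR (0.0634) and with only the 2 groups in the fit (0.0728), at -1.89 without CD_WD_1 and -3.95 without CD_WD_3.

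Of the elastic fibre genes Eln, Fbn1, Lox and Fbln5, all but Fbln5 fell in both comparisons. Over all genes, 10.2% fell with WD mothers and 5.55% with CD mothers. Eln encodes elastin, the rubber-like core of the aortic lamellae, which smooth muscle cells chiefly make. It had normalised read counts of 3357, 1093 and 566 in WD_WD, 112, 714 and 1612 in CD_WD, 11804, 20172 and 13487 in WD_CD, and 23479.8, 14206 and 23279 in CD_CD. The highest library of WD offspring, WD_WD_1, was well below the lowest library of CD offspring. Eln gave a log2 fold change of -3.53 ± 0.82 (SE; limma adjusted p = 0.00982) with WD mothers and -5.29 ± 0.82 (SE; limma adjusted p = 0.00209) with CD mothers, the second being the largest fall among the members in that comparison. Leaving out a library moved it between -4.23 (without WD_WD_1) and -2.94 (without WD_WD_3) with WD mothers and between -6.13 (without CD_WD_3) and -4.21 (without CD_WD_1) with CD mothers, and it passed each time. Per kilobase of exon, Eln ranked 11 and 19 among the 59 members in WD_WD and CD_WD, and 4 and 3 in WD_CD and CD_CD.

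Fbn1, the fibrillin scaffold on which elastin is laid, had 169.5, 25.8 and 87.1 in WD_WD, 40.6, 249 and 222 in CD_WD, 744, 553 and 744 in WD_CD, and 1052, 635 and 804 in CD_CD. The groups of WD and CD offspring were apart. Fbn1 gave log2 fold changes of -3.19 ± 0.74 (SE; limma adjusted p = 0.00942) with WD mothers and -2.62 ± 0.74 (SE; limma adjusted p = 0.0312) with CD mothers. Lox encodes lysyl oxidase, which cross-links elastin and collagen, and had 182, 350.3 and 11.9 in WD_WD, 15.2, 232 and 275 in CD_WD, 1198, 1558 and 1036 in WD_CD, and 1602, 1564 and 1022 in CD_CD. The lowest value, 11.9 in WD_WD_3, stands for 3 reads, and the groups did not overlap. Lox gave log2 fold changes of -3.73 ± 1.16 (SE; limma adjusted p = 0.0338) with WD mothers and -3.75 ± 1.16 (SE; limma adjusted p = 0.0454) with CD mothers. Fbln5, the fibulin that tethers elastin to cells, had 4634, 3612 and 2435 in WD_WD, 137, 3009 and 7043 in CD_WD, 12876, 12701 and 15994 in WD_CD, and 11786, 12562 and 7662 in CD_CD. Its groups did not overlap, CD_WD_3 coming nearest to CD_CD, and CD_WD_1 was far below the others. The log2 fold changes of -2.00 ± 1.02 (SE; limma adjusted p = 0.166) with WD mothers and -2.87 ± 1.02 (SE; limma adjusted p = 0.0776) with CD mothers did not pass. Without CD_WD_1 the value with CD mothers was -1.18 and did not pass either (limma adjusted p = 0.0647), and without CD_WD_3 it was -4.02 and passed (limma adjusted p = 0.0114).

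With CD mothers, Fbn1 missed the threshold without any CD_CD library or CD_WD_1 (limma adjusted p up to 0.115, log2 fold change -1.79 without CD_WD_1), and Lox without the same libraries (up to 0.134, at -2.43 without CD_WD_1 and -4.48 without CD_WD_3). With WD mothers, Lox missed it without any WD_CD library or WD_WD_3 (up to 0.114, at -2.30 without WD_WD_3 and -4.68 without WD_WD_2), and Fbn1 ran from -3.80 without WD_WD_1 to -2.46 without WD_WD_2 and passed each time. The summed level of 12 smooth muscle markers was 9053 to 24040 in WD_WD, 1260 to 13080 in CD_WD, 13130 to 59880 in WD_CD and 49900 to 88080 in CD_CD. Of these 12 markers, 3 fell with WD mothers, against 10.2% of all genes, and 10 with CD mothers, against 5.55%. Lmod1 was at 0 in CD_WD_1, and the part of smooth muscle RNA in the elastic fibre values was not tested.

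Fn1 encodes fibronectin, which is laid down under endothelium in regions of disturbed flow and inflammation and is bound by the alpha 5 beta 1 integrin. It had 1022, 666 and 1279 in WD_WD, 221, 1090.1 and 1511 in CD_WD, 6941, 7682 and 8944 in WD_CD, and 6135, 7483 and 5740.2 in CD_CD. The libraries of WD offspring lay far below those of CD offspring, at -3.03 ± 0.56 (SE; limma adjusted p = 0.00306) with WD mothers and -3.17 ± 0.56 (SE; limma adjusted p = 0.00368) with CD mothers, and the call held without any single library, although without CD_WD_1 the log2 fold change with CD mothers was -2.32. Sparc, a collagen-binding glycoprotein, was the most abundant member per kilobase of exon in each of the 4 groups. It had 31150.2, 8002 and 9792 in WD_WD, 3643, 61622 and 35425 in CD_WD, 23899.8, 34046 and 24125 in WD_CD, and 37668, 27965 and 58631 in CD_CD. Its groups overlapped, with CD_WD_1 at the bottom and CD_WD_2 at the top of all 12 libraries, and it passed neither with WD mothers (limma adjusted p = 0.421) nor with CD mothers, at -0.99 ± 0.88 (SE; limma adjusted p = 0.499).

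**Figure D3:**
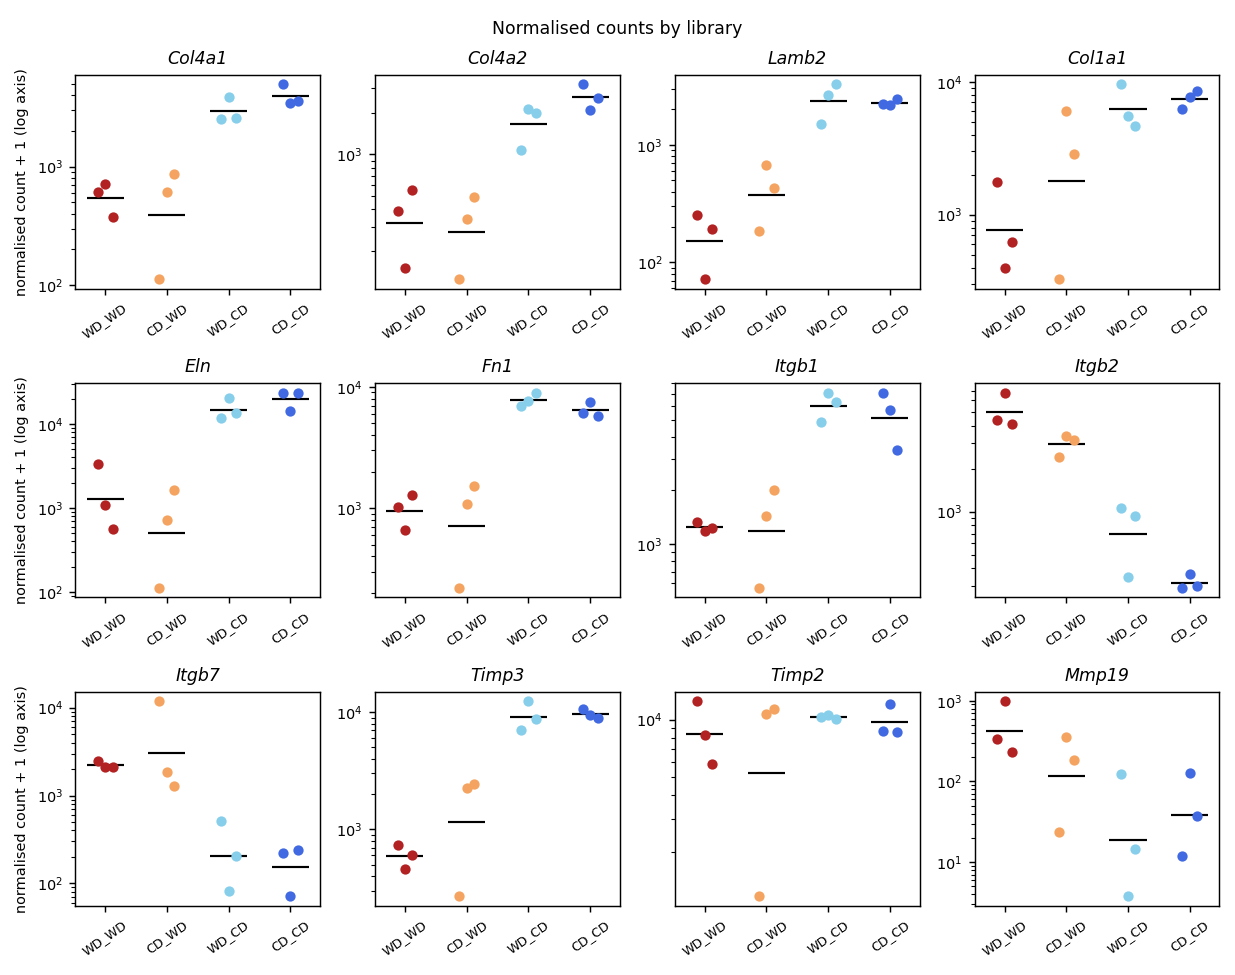
Normalised read count + 1 of 12 members in each library, on a log axis, with groups in the order WD_WD, CD_WD, WD_CD and CD_CD. Each point is 1 library and each line the geometric mean of the 3 libraries of a group. Points of WD offspring lie below those of CD offspring for Col4a1, Col4a2, Lamb2, Eln, Fn1, Itgb1 and Timp3, and for Col1a1 between groups with the same mother's diet. They lie above those of CD offspring for Itgb2 and Itgb7, and overlap for Timp2 and, with CD mothers, for Mmp19.

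The integrin chains split in 2 directions. The beta 1 chain, shared by most matrix-binding integrins, and the beta 4 chain fell, and the leukocyte beta 2 and beta 7 chains rose, in both comparisons. Itgb1 had 1320.3, 1189 and 1235 in WD_WD, 568, 1429 and 1999 in CD_WD, 4837, 7044 and 6275 in WD_CD, and 7089.6, 5653 and 3357 in CD_CD. WD offspring were below CD offspring in every library. The log2 fold changes were -2.26 ± 0.43 (SE; limma adjusted p = 0.00367) with WD mothers and -2.12 ± 0.43 (SE; limma adjusted p = 0.00708) with CD mothers. Itgb4, the laminin-binding partner of the alpha 6 chain, had 288, 119.8 and 131 in WD_WD, 20.3, 43.9 and 244 in CD_WD, 1038, 902 and 893 in WD_CD, and 1099, 1427 and 969 in CD_CD. All WD offspring libraries were at 288 or less and all CD offspring libraries at 893 or more. Itgb4 gave log2 fold changes of -2.50 ± 0.71 (SE; limma adjusted p = 0.0231) with WD mothers and -4.22 ± 0.71 (SE; limma adjusted p = 0.00274) with CD mothers. With WD mothers its call was missed without any 1 WD_CD library, WD_WD_2 or WD_WD_3 (limma adjusted p 0.0555 to 0.0727) and with sample weights (0.057). With CD mothers it held throughout, at -3.45 without CD_WD_1 and -5.22 without CD_WD_3.

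Itgb2 encodes the beta 2 chain, which pairs with the alpha L, M and X chains on leukocytes. It had 4379.6, 6785 and 4129.7 in WD_WD, 2398, 3394 and 3170.2 in CD_WD, 1056, 349 and 929.5 in WD_CD, and 293, 363 and 298 in CD_CD. Each library of WD offspring was above each library of CD offspring, and the WD_WD libraries were also above the CD_WD libraries. The log2 fold change was 2.83 ± 0.40 (SE; limma adjusted p = 0.000787) with WD mothers and 3.22 ± 0.40 (SE; limma adjusted p = 0.000999) with CD mothers. Per kilobase of exon, Itgb2 was 4.44, 7.63 and 4.47 times Itgb1 in WD_WD and 5.65, 3.18 and 2.12 times in CD_WD, but 0.292, 0.0663 and 0.198 times in WD_CD and 0.0553, 0.0859 and 0.119 times in CD_CD. The order of the 2 beta chains was therefore turned round in all 6 libraries of WD offspring.

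Itgb7 encodes the beta 7 chain, which pairs with alpha 4 or alpha E on lymphocytes and other leukocytes. It had 2466, 2120.0 and 2118 in WD_WD, 11809, 1866 and 1278 in CD_WD, 507, 81.3 and 203 in WD_CD, and 219, 70.7 and 237 in CD_CD. CD_WD_1, at 11809, exceeded all other libraries, yet the groups did not overlap without it either. Itgb7 gave a log2 fold change of 3.45 ± 0.81 (SE; limma adjusted p = 0.0101) with WD mothers and 4.29 ± 0.81 (SE; limma adjusted p = 0.00481) with CD mothers. It was 3.31 without CD_WD_1, 4.92 without CD_WD_3, 4.10 without WD_CD_1 and 2.79 without WD_CD_2, each still past the threshold. In CD_WD_1 the 6 beta chains made up 60.4% of the summed value of all members, against 12.2% to 25% in WD_WD, 6.55% and 8.3% in CD_WD_2 and CD_WD_3, 5.99% to 6.36% in WD_CD and 3.22% to 5.75% in CD_CD.

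Of the 16 macrophage markers, 10 rose with WD mothers and 3 with CD mothers, and of 10 lymphocyte markers 3 and 6 rose. Over all genes, 14.2% rose with WD mothers and 9.46% with CD mothers. The lymphocyte sum was 8219 to 32820 in WD_WD, 7101 to 400800 in CD_WD, 1593 to 4251 in WD_CD and 264.4 to 5187 in CD_CD, with Cd79b and Cd7 each at 0 in 1 library of CD offspring. The part of leukocyte RNA in the levels of Itgb2 and Itgb7 was not tested. Itgb5, which pairs with alpha V, and Itgb3, the chain of the vitronectin and platelet receptors, passed in neither comparison. Itgb5 had 1356, 1283 and 855 in WD_WD, 45.6, 902 and 825 in CD_WD, 1335, 1232 and 812 in WD_CD, and 865, 1175 and 747 in CD_CD, so that CD_WD_1 alone was low, and gave 0.05 ± 0.85 (SE; limma adjusted p = 0.97) with WD mothers and -1.48 ± 0.85 (SE; limma adjusted p = 0.268) with CD mothers. Itgb3 had 213, 51.6 and 222 in WD_WD, 449, 179.9 and 247 in CD_WD, 345, 165 and 230.0 in WD_CD, and 78.4, 349 and 159.9 in CD_CD, with overlapping groups, and gave -0.80 ± 0.70 (SE; limma adjusted p = 0.415) with WD mothers and 0.72 ± 0.70 (SE; limma adjusted p = 0.533) with CD mothers.

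Among the 7 alpha chains, 2 fell with WD mothers, against 10.2% of all genes, and 3 with CD mothers, against 5.55%. None passed as higher. Itga1, a collagen-binding chain, had 18, 94 and 63.4 in WD_WD, 12.7, 83.7 and 179 in CD_WD, 233, 595 and 525 in WD_CD, and 571, 467 and 519 in CD_CD. Itga9, which binds tenascin and other matrix ligands, had 84.8, 315 and 139 in WD_WD, 17.8, 138 and 176 in CD_WD, 767, 1662 and 1059.9 in WD_CD, and 1312, 1131 and 954 in CD_CD. Neither gene had overlapping groups of WD and CD offspring. Itga1 was at -3.10 ± 0.88 (SE; limma adjusted p = 0.0231) with WD mothers and -3.13 ± 0.88 (SE; limma adjusted p = 0.0305) with CD mothers, and Itga9 at -2.83 ± 0.75 (SE; limma adjusted p = 0.0172) with WD mothers and -3.86 ± 0.75 (SE; limma adjusted p = 0.00539) with CD mothers. Itga3, a laminin-binding chain, passed with CD mothers (-2.70 ± 0.63 SE, limma adjusted p = 0.0136) and not with WD mothers (-1.52 ± 0.63 SE, limma adjusted p = 0.0926).

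Itga5, the alpha chain of the fibronectin receptor, had 547, 805 and 206 in WD_WD, 65.9, 927 and 1285 in CD_WD, 1872, 2162 and 2185 in WD_CD, and 1801, 2397 and 1179 in CD_CD. The WD_WD libraries lay below the WD_CD libraries, CD_WD overlapped CD_CD, and neither comparison passed (-2.20 ± 0.88 SE, limma adjusted p = 0.0843 with WD mothers and -2.00 ± 0.88 SE, limma adjusted p = 0.146 with CD mothers). Itga6, a laminin-binding chain, had 369.9, 221 and 269 in WD_WD, 210.4, 249 and 299 in CD_WD, 154, 434 and 254 in WD_CD, and 1061, 246 and 704 in CD_CD. Its groups overlapped in both comparisons, at 0.12 ± 0.55 (SE; limma adjusted p = 0.886) with WD mothers and -1.18 ± 0.55 (SE; limma adjusted p = 0.167) with CD mothers, so that its partner Itgb4 fell where Itga6 did not pass. Itga4, the chain of the receptor for VCAM-1 and fibronectin, had 157, 206 and 222 in WD_WD, 325, 437 and 225 in CD_WD, 249, 63.8 and 24.7 in WD_CD, and 50.6, 32.3 and 155 in CD_CD. The CD_WD libraries lay above the CD_CD libraries, but the log2 fold changes of 1.38 ± 0.81 (SE; limma adjusted p = 0.226) with WD mothers and 2.30 ± 0.81 (SE; limma adjusted p = 0.074) with CD mothers did not pass. Itga2b, the alpha chain of the platelet receptor, did not pass either (1.36 ± 1.26 SE, limma adjusted p = 0.446 with WD mothers and 1.66 ± 1.26 SE, limma adjusted p = 0.415 with CD mothers).

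The alpha chain calls were sensitive to single libraries. Itga1 missed the threshold with WD mothers without WD_CD_2, WD_CD_3 or WD_WD_1 (limma adjusted p 0.0693 to 0.077, log2 fold change -2.42 without WD_WD_1) and with CD mothers without any CD_CD library or CD_WD_1 (up to 0.101, at -2.07 without CD_WD_1 and -3.93 without CD_WD_3). Itga9 missed it with WD mothers without WD_CD_2 or WD_WD_1 (0.0656 and 0.0582) and held with CD mothers, at -2.84 without CD_WD_1 and -4.46 without CD_WD_3. Itga3 missed it with CD mothers without CD_CD_1 or CD_CD_2 (0.0549 and 0.0501), at -1.98 without CD_WD_1 and -3.54 without CD_WD_3.

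The 2 integrin-binding proteins rose with WD mothers, where 14.2% of all genes rose. Itgb1bp1 encodes ICAP-1, which binds the tail of the beta 1 chain and restrains its activation, and gave 1.84 ± 0.46 (SE; limma adjusted p = 0.0134) with WD mothers and 0.98 ± 0.46 (SE; limma adjusted p = 0.172) with CD mothers, where it did not pass. Itgb3bp encodes a centromere protein that was named for binding the beta 3 tail, and had 265, 447 and 372 in WD_WD, 149.6, 77.4 and 80.9 in CD_WD, 75.9, 63.4 and 24.1 in WD_CD, and 7.29, 38.4 and 90.5 in CD_CD. Its WD_WD libraries lay above those of each other group, at 2.83 ± 0.85 (SE; limma adjusted p = 0.031) against WD_CD, and CD_WD against CD_CD gave 1.67 ± 0.85 (SE; limma adjusted p = 0.209), which did not pass. The Itgb1bp1 call was missed without WD_CD_3 (limma adjusted p = 0.0522), and the Itgb3bp call without WD_CD_2, WD_CD_3, WD_WD_2 or WD_WD_3 (0.0579 to 0.0955) and with sample weights (0.0948).

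Metalloproteinase genes went both ways. With WD mothers 3 had a positive log2 fold change, against 50.1% of all genes, and with CD mothers 2, against 49.4%. Of the 6, 1 passed as higher with WD mothers, against 14.2% of all genes, and none passed with CD mothers. Mmp19, an enzyme that cuts basement membrane proteins, had 334, 983 and 229.7 in WD_WD, 22.8, 354 and 181 in CD_WD, 121, 2.79 and 13.4 in WD_CD, and 10.8, 127 and 36.5 in CD_CD. The WD_WD libraries lay above the WD_CD libraries, at 4.49 ± 1.36 (SE; limma adjusted p = 0.031), while CD_WD overlapped CD_CD, at 1.59 ± 1.36 (SE; limma adjusted p = 0.476). The WD_CD level of 2.79 in WD_CD_2 stands for 7 reads, and the call was missed without WD_CD_2, WD_CD_3, WD_WD_1 or WD_WD_2 (limma adjusted p 0.0583 to 0.112) and by edgeR (0.097), with log2 fold changes from 3.34 without WD_CD_2 to 5.84 without WD_CD_1.

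Mmp2, the gelatinase made by many stromal cells, had 956, 419 and 408 in WD_WD, 50.7, 1584 and 1121 in CD_WD, 2182, 2198 and 2250.2 in WD_CD, and 1839, 2175 and 1397 in CD_CD. WD_WD lay below WD_CD and CD_WD overlapped CD_CD, at -2.01 ± 0.95 (SE; limma adjusted p = 0.135) with WD mothers and -1.98 ± 0.95 (SE; limma adjusted p = 0.181) with CD mothers, and neither passed. Mmp14, the membrane-bound enzyme that activates the product of Mmp2, had 1158, 1523 and 705 in WD_WD, 112, 498 and 1234 in CD_WD, 675, 198 and 635 in WD_CD, and 439, 829 and 409.8 in CD_CD. WD_WD lay above WD_CD, but 1.29 ± 0.75 (SE; limma adjusted p = 0.221) did not pass, and nor did -0.37 ± 0.75 (SE; limma adjusted p = 0.798) with CD mothers. Mmp9, the gelatinase of neutrophils and macrophages, had 321, 798 and 229.7 in WD_WD, 198, 458 and 382 in CD_WD, 347, 95.2 and 87.6 in WD_CD, and 336, 83.4 and 109 in CD_CD, with overlapping groups, and gave 1.44 ± 0.71 (SE; limma adjusted p = 0.152) with WD mothers and 1.16 ± 0.71 (SE; limma adjusted p = 0.302) with CD mothers. The 4 neutrophil markers summed to 13400 to 171200 in WD_WD, 24870 to 192600 in CD_WD, 56.18 to 800.5 in WD_CD and 104.2 to 416.3 in CD_CD. All 4 rose with WD mothers, against 14.2% of all genes, and 3 with CD mothers, against 9.46%. The part of neutrophil RNA in the Mmp9 level was not tested. Mmp3 and Mmp23 did not pass.

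All 4 ADAMTS genes had negative log2 fold changes, and the same 2 passed in both comparisons. Over all genes, 10.2% passed as lower with WD mothers and 5.55% with CD mothers, and 50.1% and 49.4% had positive log2 fold changes. Adamts1, which cuts versican and aggrecan, had 193, 54.6 and 71.3 in WD_WD, 27.9, 268 and 597 in CD_WD, 668, 1935 and 1447 in WD_CD, and 1615, 1432 and 1539.8 in CD_CD. Its groups did not overlap. Adamts1 gave log2 fold changes of -3.75 ± 0.89 (SE; limma adjusted p = 0.0104) with WD mothers and -3.20 ± 0.89 (SE; limma adjusted p = 0.0294) with CD mothers. With CD mothers the call was missed without any 1 CD_CD library (limma adjusted p 0.0712 to 0.0941), by edgeR (0.0672) and with only the 2 groups in the fit (0.0748), and the log2 fold change was -1.93 without CD_WD_1 and -4.12 without CD_WD_3. Adamts10, whose product binds fibrillin microfibrils, had 149, 344 and 265 in WD_WD, 195, 182 and 176 in CD_WD, 515, 772 and 502 in WD_CD, and 732, 1117 and 699 in CD_CD. Its groups did not overlap, at -1.29 ± 0.39 (SE; limma adjusted p = 0.0323) with WD mothers, where each left-out library but WD_WD_2 ended the call (0.0502 to 0.115), and -2.17 ± 0.39 (SE; limma adjusted p = 0.00407) with CD mothers. Adamts2, the procollagen N-proteinase, and Adamts5, an aggrecanase, did not pass.

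Of the 4 inhibitors, Timp3 alone passed, as lower in both comparisons, against 10.2% of all genes with WD mothers and 5.55% with CD mothers. Timp3 encodes the inhibitor that stays bound to the matrix and also blocks ADAMTS enzymes, and had 735, 459 and 602 in WD_WD, 269, 2264 and 2458 in CD_WD, 7097, 12371 and 8735 in WD_CD, and 10645, 9542 and 8993 in CD_CD. Every library of WD offspring was at 2458 or less and every library of CD offspring at 7097 or more. This gave log2 fold changes of -3.96 ± 0.66 (SE; limma adjusted p = 0.00177) with WD mothers and -3.08 ± 0.66 (SE; limma adjusted p = 0.0086) with CD mothers. With CD mothers it was -2.04 without CD_WD_1 and missed the threshold with only the 2 groups in the fit (limma adjusted p = 0.0519). Timp2, a soluble inhibitor and the second most abundant member per kilobase of exon in each group, had 12497, 8266 and 5828 in WD_WD, 1171, 10729.6 and 11406 in CD_WD, 10386, 10522 and 10082 in WD_CD, and 8754, 12049.5 and 8626 in CD_CD. CD_WD_1 was far below the other libraries, and the log2 fold changes of -0.29 ± 0.69 (SE; limma adjusted p = 0.781) with WD mothers and -0.89 ± 0.69 (SE; limma adjusted p = 0.432) with CD mothers did not pass.

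Timp1, the inducible soluble inhibitor, had 1541, 538 and 709 in WD_WD, 40.6, 722 and 1106 in CD_WD, 713, 141 and 699 in WD_CD, and 145, 478 and 215 in CD_CD. Its groups overlapped, and 1.02 ± 1.05 (SE; limma adjusted p = 0.499) with WD mothers and 0.38 ± 1.05 (SE; limma adjusted p = 0.857) with CD mothers did not pass. Per kilobase of exon, Timp1 was 19.2, 10.7 and 10.8 times Timp3 in WD_WD and 1.38, 2.92 and 4.13 times in CD_WD, and 0.922, 0.105 and 0.734 times in WD_CD and 0.125, 0.459 and 0.219 times in CD_CD. Timp1 thus exceeded Timp3 per kilobase in all libraries of WD offspring and in none of CD offspring, an order described after seeing the values. Timp4 rested on 1 read in WD_WD_2 and did not pass.

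**Figure D4:**
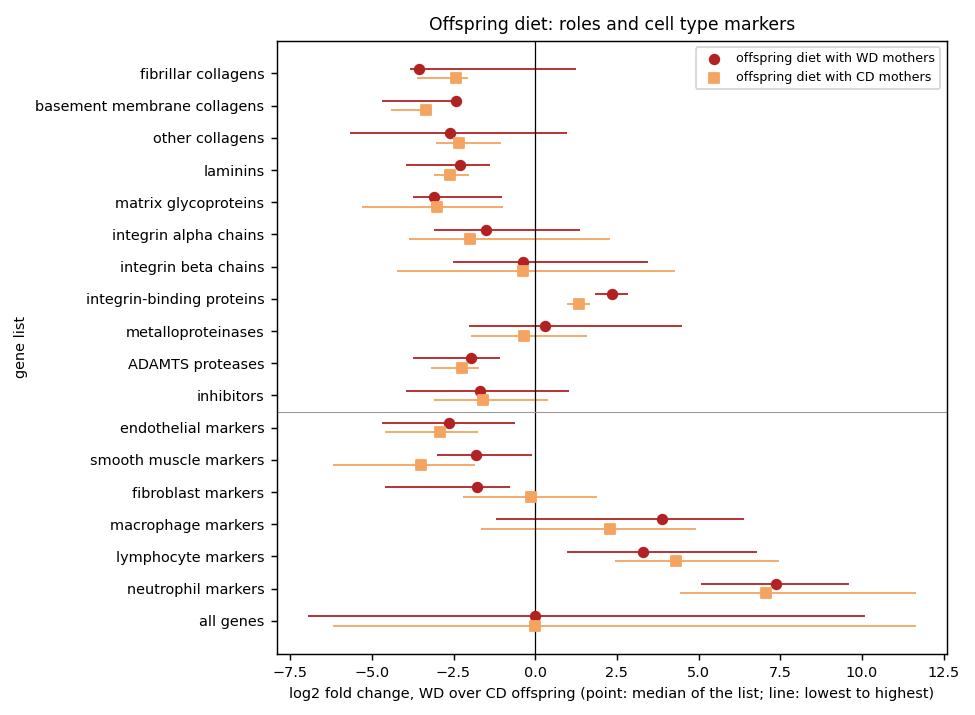
Log2 fold change for the offspring's diet by role, and by list of cell type markers, for WD_WD over WD_CD (circles) and CD_WD over CD_CD (squares). Points are the median of the list and lines run from its lowest to its highest gene, so they are not errors. Medians of basement membrane collagens, laminins and matrix glycoproteins lie between -3.33 and -2.31, and those of integrin beta chains and metalloproteinases lie near 0. With WD mothers the medians are -2.65 for endothelial, -1.824 for smooth muscle and -1.785 for fibroblast markers. With CD mothers they are -2.91 for endothelial, -3.495 for smooth muscle and -0.116 for fibroblast markers. Medians of macrophage, lymphocyte and neutrophil markers lie above 0 in both comparisons.

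The medians by role did not always follow the calls. With WD mothers they were -2.43 for basement membrane collagens, -2.31 for laminins, -3.57 for fibrillar collagens, -2.61 for other collagens and -3.11 for matrix glycoproteins, and with CD mothers -3.33 for basement membrane collagens, -2.61 for laminins, -2.43 for fibrillar collagens, -2.34 for other collagens and -3.02 for matrix glycoproteins. ADAMTS proteases had medians of -1.96 with WD mothers and -2.25 with CD mothers, inhibitors -1.68 with WD mothers and -1.60 with CD mothers, and integrin beta chains, with members at both ends, -0.38 in both comparisons. For metalloproteinases the median was 0.31 with WD mothers and -0.34 with CD mothers, and without CD_WD_1 the second became 1.25. The other medians by role are given only with CD_WD_1. With CD mothers, 1 of the 10 other collagens passed, at a median near that of the laminins, of which all 5 passed. Of all genes, 5.55% passed as lower in that comparison.

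Genes of the same pathways outside the rule were read from lists. Over all genes, 14.2% passed as higher and 10.2% as lower with WD mothers, and 9.46% and 5.55% with CD mothers. All values of these lists with CD mothers include CD_WD_1. Of 23 measured matrix genes beside the members, 10 fell with WD mothers and 9 with CD mothers, and none rose. They included Hspg2, the perlecan core protein of basement membranes with a log2 fold change of -2.13 with WD mothers and -3.25 with CD mothers, and Agrn, agrin, at -2.54 with WD mothers and -2.64 with CD mothers. Fbln2, a fibulin of elastic fibres, was at -4.60 with WD mothers and -3.95 with CD mothers, and Ltbp4, a TGF-beta binding protein, at -3.41 with WD mothers and -3.56 with CD mothers. Of 11 collagen-processing genes, 4 fell with WD mothers (36.4%) and 1 with CD mothers (9.09%). Serpinh1, the collagen chaperone, fell in both, by 2.35 on the log2 scale with WD mothers and by 2.38 with CD mothers. Of 14 integrin adaptors, 2 rose and 5 fell with WD mothers, and 1 rose and 5 fell with CD mothers. The shares that rose, 14.3% with WD mothers and 7.14% with CD mothers, were near those of all genes. Fermt3, the kindlin of blood cells, rose in both, by 2.05 on the log2 scale with WD mothers and by 2.38 with CD mothers. Vcl (vinculin), Ptk2 (focal adhesion kinase) and Zyx (zyxin), all of which sit at the adhesion sites of integrins, fell in both, with log2 fold changes from -2.57 to -1.95 with WD mothers and from -2.86 to -2.03 with CD mothers.

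Other genes of matrix proteolysis went both ways, with 5 of 16 higher and 3 lower with WD mothers and 2 higher and 3 lower with CD mothers. These were 31.2% and 18.8% with WD mothers, against 14.2% and 10.2% of all genes. With CD mothers they were 12.5% and 18.8%, against 9.46% and 5.55%. Ctss, the elastin-cutting cathepsin S of macrophages and antigen-presenting cells, rose by 4.87 on the log2 scale with WD mothers and by 4.52 with CD mothers, and Plaur, the urokinase receptor, by 2.73 with WD mothers and 3.13 with CD mothers. Reck, a membrane-anchored inhibitor of metalloproteinases, fell by 4.11 with WD mothers and fell by 2.40 with CD mothers, and Serpine2, an inhibitor of serine proteases, fell by 3.08 with WD mothers and fell by 4.02 with CD mothers. Of the 5 measured alpha chains that the symbol rule does not reach, Itgal, the partner of the beta 2 chain on lymphocytes, rose with CD mothers (3.46) and was at -0.05 with WD mothers, and Itgam, Itgax, Itgae and Itgav did not pass.

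The mother's diet was the contrast that the series title names. No member passed it, in WD or in CD offspring. Among WD offspring, 0 of 59 members and 0% of all genes passed between WD_WD and CD_WD, by limma, and edgeR and DESeq2 on recovered reads called 0 members as well, DESeq2 calling 14 genes in all. At an unadjusted p under 0.05 there were 2 members by limma, against 5.89% of all genes, 6 by edgeR, against 5.10%, and 9 by DESeq2, against 7.31%. The 5 members with the smallest p were Col23a1 (-3.19 ± 1.09 SE, limma adjusted p = 0.836), Lamb2 (-1.30 ± 0.54 SE, limma adjusted p = 0.836), Itgb3bp (1.84 ± 0.85 SE, limma adjusted p = 0.836), Itgb5 (1.81 ± 0.85 SE, limma adjusted p = 0.836) and Itgb4 (1.43 ± 0.71 SE, limma adjusted p = 0.852). From the values given for each gene, the WD_WD libraries of Col23a1 were all below the CD_WD libraries, and those of Itgb3bp all above, while Lamb2, Itgb4 and Itgb5 overlapped. In all, 2 members lay wholly above in WD_WD (Itgb2 and Itgb3bp, against 5.86% of all genes) and 2 wholly below (Col23a1 and Itga4, against 4.16%).

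The median log2 fold change of the members for the mother's diet in WD offspring was 0.12, with 34 of 59 members positive, against 47.8% of all genes, where the median of all genes was -0.03. That sign turned with single libraries. Without CD_WD_1 the median was -0.64, with 14 of 59 members positive, against -0.03 and 48.7% of all genes. In that fit 18 members, against 8.37% of all genes, reached an unadjusted p under 0.05, and none passed after adjustment. Without CD_WD_2 or CD_WD_3 the median was 0.49 or 0.52, and without WD_WD_1 it was -0.03. By role, the median without CD_WD_1 was -2.35 for fibrillar collagens, -1.20 for inhibitors and -1.14 for ADAMTS proteases.

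Among CD offspring, 0 of 59 members and 0% of all genes passed between WD_CD and CD_CD by limma, and edgeR and DESeq2 called 0 members, DESeq2 calling 9 genes in all. At an unadjusted p under 0.05 there was 1 member by limma, against 2.59% of all genes, and there were 2 by edgeR, against 1.71%, and 2 by DESeq2, against 3.0%. The 5 members with the smallest p were Itgb2 (1.14 ± 0.40 SE, limma adjusted p = 1), Itga6 (-1.14 ± 0.55 SE, limma adjusted p = 1), Col15a1 (-2.44 ± 1.22 SE, limma adjusted p = 1), Adamts10 (-0.51 ± 0.39 SE, limma adjusted p = 1) and Col4a2 (-0.64 ± 0.56 SE, limma adjusted p = 1). The Itgb2 level was high in WD_CD_1 and WD_CD_3 and inside the CD_CD range in WD_CD_2, whereas the 3 WD_CD libraries of Col15a1 all lay below CD_CD. The macrophage sum, 11580 to 137700 in WD_CD and 22320 to 52830 in CD_CD, was also highest in WD_CD_1 and lowest in WD_CD_2, and its part in the Itgb2 value was not tested. The median of the members was -0.16, with 22 of 59 positive, against -0.05 and 46.0% of all genes. In 2 members, Fbln5 and Mmp2, the WD_CD libraries lay wholly above the CD_CD libraries, against 4.00% of all genes, and in 1, Col15a1, wholly below, against 4.87%.

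**Figure D5:**
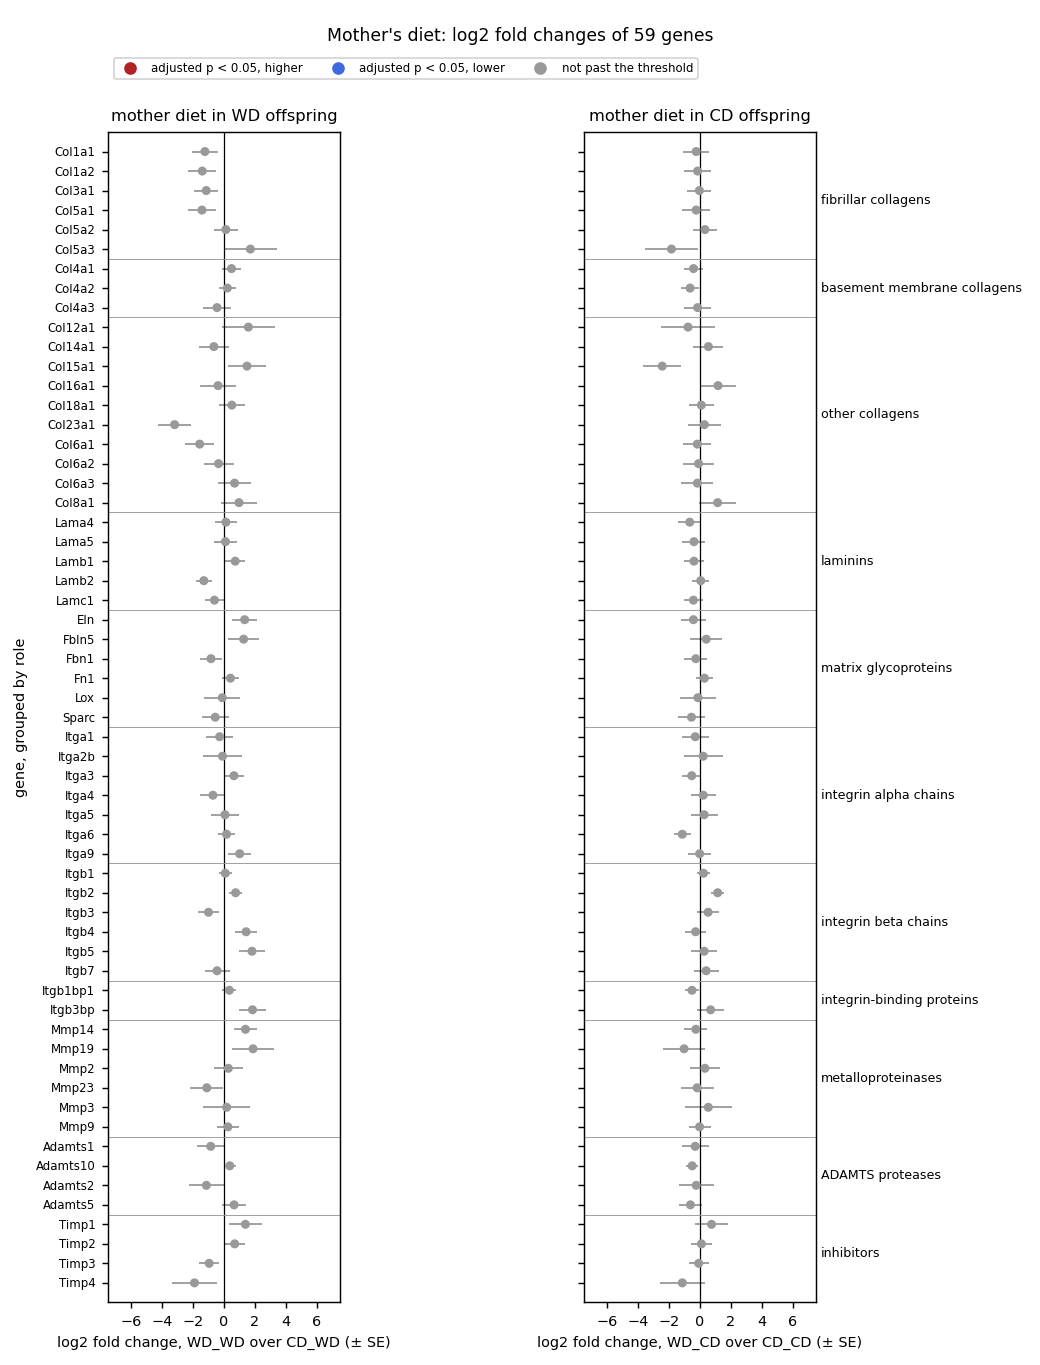
Log2 fold change of each member for the mother's diet, WD_WD over CD_WD on the left and WD_CD over CD_CD on the right, with bars of 1 SE from limma over 12 libraries. All 59 points are grey in both panels, since none passed the test, and Col23a1 lies farthest to the left in WD offspring, at -3.19.

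The interaction, which asks whether the mother's diet made a different difference in WD than in CD offspring, called 0 members and 0% of all genes by limma, and edgeR and DESeq2 called 0 members, DESeq2 calling 10 genes in all. Counted at an unadjusted p under 0.05, 2 members were past it by limma, against 3.21% of all genes, 1 by edgeR, against 2.87%, and 2 by DESeq2, against 4.28%. In all, 29 of 59 members were positive, against 50.8%. The 5 members with the smallest p were Col15a1 (3.93 ± 1.72 SE, limma adjusted p = 0.997), Col23a1 (-3.48 ± 1.54 SE, limma adjusted p = 0.997), Lamb2 (-1.35 ± 0.76 SE, limma adjusted p = 0.997), Itgb4 (1.72 ± 1.00 SE, limma adjusted p = 0.997) and Itga6 (1.31 ± 0.78 SE, limma adjusted p = 0.997).

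The authors' deposited table holds their own fold changes for the mother's diet, and in it no member had an adjusted p under 0.05. In WD offspring the lowest adjusted p of a member in the authors' deposited table was 0.0771, for Col23a1 at a log2 fold change of -2.57, and 11 members had an unadjusted p under 0.05, against 9.17% of all genes in it. Over all genes, 36 had an adjusted p under 0.05 in the authors' deposited table for that comparison. In CD offspring it was 0.344 in the authors' deposited table, for Itgb2 at 1.29, with 3 members at an unadjusted p under 0.05, against 3.71% of all genes, and 13 genes in all at an adjusted p under 0.05.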

How the data were processed

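SMART-seq libraries of mouse aortic endothelial cells were analysed, 3 in each of 4 groups. Per the submitters' processing notes, reads went through HISAT2 2.2.1, featureCounts 2.0.1, SAMtools 1.13, FastQC 0.12.1, Trim Galore 0.6.10 and DESeq2 (steps and order not stated), on GRCm38 (mm10). Strand use in counting is not stated. The deposited values are a normalised signal, read counts divided by a size factor for each library, as their steps show: all 127860 values, 100%, were whole multiples of 1 read within 0.01, the lowest value of CD_CD_3 being taken as 3 reads. The deposited table also holds the authors' log2 fold changes and p-values for the mother's diet, of which only those named as the authors' are printed.

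The table of 10655 genes (lowest mean 15.8) was used whole, as log2(value + 1), and fitted with limma 3.58.1 (R 4.3.3, mean-variance trend, group means of all 12 libraries, 8 residual degrees of freedom). Benjamini-Hochberg adjustment ran over all genes, with a threshold of 0.05. The fit was run on simulated counts with the same spread for all genes and few changed ones. That setting is simpler than these libraries, so it gives no error rate for them. Alternatives were a pseudocount of 8, a mean of at least 50, TMM and upper-quartile scaling, only the groups compared, sample weights, the replicate block, edgeR 4.0.16 and DESeq2 1.42.0 on recovered reads, and each library left out. Promoter sequences and gene positions come from RefSeq (GRCm38.p6), and exon lengths from GENCODE on GRCm38. Libraries of 1 group differed by more than counting noise, so none was the same library deposited again, but repeat libraries of 1 RNA sample cannot be told apart from separate animals. Values per library are given for a panel of genes, for the called member with the largest rise and fall of each role, and for the 5 members with the smallest p where fewer than 5 passed. The members and lists were chosen with earlier results of these data known. One lymphocyte marker is not reported here and was left out of its list.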

Additional observations from a re-analysis of the deposited data

How the results depend on the processing

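Across the alternatives, the number of members that passed the test stayed within 1.5 times the reported one except when single libraries were left out. With WD mothers it was 31 and ran from 29 to 37 under other settings and from 18 to 28 with a library left out. With CD mothers it was 25, and ran from 17 to 32 under other settings and from 14 to 28 with a library left out. For the mother's diet in WD and in CD offspring and for the interaction it was 0 throughout, with any library left out as well. Of the calls, 15 of 31 with WD mothers and 13 of 25 with CD mothers held under every alternative run, and none changed direction. How many of the calls over all genes held was not counted. The losses to single libraries are named beside each gene. Fitting only the 2 groups compared ended the calls of Lama4 and Adamts10 with WD mothers and of Timp3, Itga1, Itga3, Fbn1, Lox, Adamts1, Col3a1 and Col18a1 with CD mothers, and edgeR those of Mmp19 with WD mothers and of Lox, Adamts1, Col3a1 and Col18a1 with CD mothers. TMM and upper-quartile scaling shifted the median of all genes by -0.12 and -0.18 with WD mothers and by -0.09 and -0.13 with CD mothers, and no called member changed sign. With the replicate number as a block, 29 members passed with WD mothers and 22 with CD mothers, without Lama4 and Itgb3bp with WD mothers and without Lamc1, Lox and Col3a1 with CD mothers. Same-numbered libraries did not deviate together (correlations -0.232 to 0.074 in 18 pairs, 2 of 12 libraries matching best with their own number), so the numbers were not taken as pairs. Genes such as Col23a1 and Lox had few reads in some libraries of WD offspring, which limits their values there.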
